A study of Homo sapiens with 8 samples.

Results

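Coding translation was compared between transgenic cells and their parental line with both NAEK states pooled, over 4 transgenic and 4 HEK293T ribosome profiling libraries. HEK293T cells derive from human embryonic kidney and express the large T antigen of SV40. Labels describe the transgenic cells as HEK293T with stably integrated Mb pyltRNA, and the tables also list a pyrrolysyl-tRNA synthetase and a GFP39 construct. Each line was profiled without NAEK and with NAEK at 1 mM, 2 libraries each, and NAEK state entered the main pooled test as a covariate. Coding regions with a mean of at least 1 RPKM over the 8 libraries were taken and both transgene entries were left out, which kept 46154 of the 82586 coding regions listed. RPKM is the read count of a region normalised to its length in kilobases and to the library's total reads. The labels do not say whether the transgenic line is 1 clone or a pool of cells, or whether libraries of a group are separate cultures, and the p-values therefore reflect library-to-library spread alone, which may be technical.

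In ribosome profiling, nuclease removes the mRNA that is not covered by ribosomes, and the protected fragments are sequenced. Footprint density over a coding region rises with the amount of its mRNA and with the number of ribosomes on each mRNA, and these parts cannot be told apart without RNA sequencing of the same cells, which was not analysed here. In a pyrrolysine system, an archaeal or bacterial synthetase loads its partner tRNA with an added amino acid, and that tRNA then reads the amber stop codon UAG. NAEK, the amino acid added here, is a derivative of lysine that bears an azide. Comparing the lines over both NAEK states asks what differs in the translation of ordinary coding regions between the engineered line and its parent, apart from the supplied amino acid.

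By totals inferred from the RPKM values, libraries held 12923243 to 20569590 reads, of which coding regions took 89.0 to 89.1%. The synthetase entry separated the lines as labelled, with 5538 to 5820 RPKM in the transgenic libraries and 7.24 to 11.4 RPKM in the HEK293T libraries. It took 0.714 to 0.751% of all reads in the transgenic libraries. The HEK293T libraries were not free of transgene reads, with 192 to 254 reads of the synthetase and 8.15 to 21.7 RPKM of GFP39. The source of these reads was not tested. The transcript IDs were not paired with gene names in the files and tables used here, so results are given by transcript, gene lists and cell type markers were not used, and at most 2 IDs are named in each direction. Transcripts of 1 gene can share reads, and counts of transcripts are not counts of genes. Among the 44679 coding regions with at least 50 reads, 0 sets held the same reads in all 8 libraries.

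Limma called a small share of transcripts as different in coding density between transgenic and HEK293T cells, and lower calls outnumbered higher ones. A region that was not called can still differ, so the share called is not the share that differs. By limma on log2(RPKM + 1), 1380 coding regions passed an adjusted p of 0.05 (2.99% of those tested), 502 higher in transgenic cells (1.09%) and 878 lower (1.9%). At an unadjusted p under 0.05 there were 9705, of which 4314 were higher and 5391 lower. The median difference over all coding regions tested was -0.0037 on the log2 scale, and 49.3% of them had a difference above 0. In a pool of cells, a lower density in every cell and the same density in fewer cells cannot be told apart. The count was unstable: voom on recovered reads called 3740, without HEK293T plus NAEK replicate 1 it was 249, and without HEK293T minus NAEK replicate 2 it was 1787, while lower calls outnumbered higher ones in each fit that left out 1 library.

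All 4 transgenic libraries lay above all 4 HEK293T libraries in 2668 coding regions (5.78% of those tested), and below all 4 in 3685 (7.98%). Together these 6353 regions were 13.8% of those tested, and 58.0% of them were lower in transgenic cells. The limma calls lay nearly all inside this set. Of the 502 higher calls 489 did not overlap between lines (1.06% of those tested), and of the 878 lower calls 867 did not overlap (1.88%). The converse did not hold, since 2179 regions with all transgenic libraries above and 2818 with all below had an adjusted p over 0.05. The excess of lower regions without overlap was smaller after rescaling. Quantile normalization gave 2942 above and 3593 below, and setting libraries to the same median RPKM gave 2874 and 3579.

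Fewer coding regions separated the same libraries by NAEK state. The NAEK term of the same fit passed in 0 coding regions by limma (0.0%), with 2339 of 46154 at an unadjusted p under 0.05. All 4 libraries with NAEK lay above all 4 without it in 726 coding regions (1.57%) and below in 285 (0.617%). Single pairs of libraries show the size of the spread behind these counts. Over the 15497 coding regions with a mean of at least 10 RPKM, the median absolute log2 difference was 0.121 to 0.177 between replicates of a group and 0.0942 to 0.195 between NAEK states of a line. Between lines in the same NAEK state it was 0.14 to 0.231. These ranges overlap.

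Most differences between the lines were small. Among regions with all transgenic libraries above, the median log2 difference was 0.32, with quartiles at 0.23 and 0.45. Among those with all below it was -0.34, with quartiles at -0.46 and -0.25. For the limma calls without overlap the medians were 0.52 and -0.51, or mean RPKM in a ratio of 1.495 and 0.684, transgenic over HEK293T. A ratio of mean RPKM of at least 1.5 was reached by 563 of the 2668 regions above (21.1%) and by 763 of the 3685 below (20.7%). A ratio of at least 2 was reached by 106 above and 166 below, and of these 70 and 115 passed limma as well. Only 16 in each direction had at least 10 RPKM together with a ratio of at least 2. A ratio of at least 4 was seen in 7 regions above and 18 below, and 3 of the latter rest on at most 3 transgenic reads summed over 4 libraries. The plot of line difference by level shows a few strong changes standing clear of the rest. On the log2(RPKM + 1) scale, the median absolute line difference hardly changed with level. It was 0.139 between 1 and 2 RPKM and 0.147 at 200 RPKM and over. This scale shrinks the change of low densities, so the 2 values do not show that ratios were alike across levels.

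**Figure D1:**
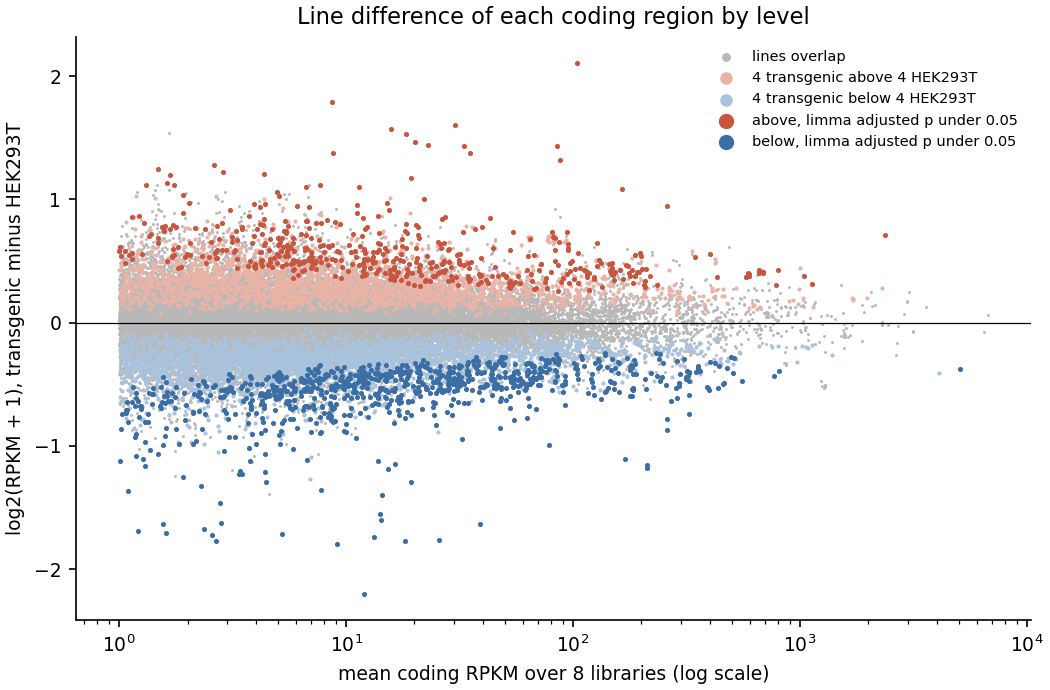
Log2 difference between the lines (transgenic minus HEK293T, in log2(RPKM + 1), vertical axis) against mean coding RPKM over 8 libraries (log scale, horizontal axis), with 1 point for each of 46154 coding regions. Pale colours mark regions whose lines do not overlap, strong colours those that also passed limma, 489 higher and 867 lower, and most coloured points lie within 1 log2 unit of 0.

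On the log2(RPKM + 1) scale, which shrinks the change of low densities, the largest increase among regions called without overlap was in ENST00000371697, a protein-coding transcript with a coding region of 960 nt. Its coding density in HEK293T cells was 30.4 and 47.9 RPKM without NAEK and 35.25 and 43.2 RPKM with it, in the order of replicates 1 and 2. In transgenic cells it was 153.5 and 189.8 RPKM without NAEK and 168.1 and 167.2 RPKM with it. The lowest transgenic library stood well above the highest HEK293T library, and the NAEK states of a line lay within the spread of its replicates. Means were 39.2 ± 7.85 RPKM in HEK293T and 169.6 ± 14.97 RPKM in transgenic cells (SD, n = 4), a 4.33-fold difference (2 called increases with means of at most 1.48 RPKM had larger ratios, up to 5.53) on 503 to 810 and 2074 to 3346 reads per library. The log2 difference was 2.10 (SE 0.138, limma adjusted p = 0.00168). It was 2.13 without NAEK and 2.07 with it, and it passed in each of the 8 fits that left out 1 library, with adjusted p from 0.00202 to 0.0154.

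The largest decrease on the same scale was in ENST00000322002, a protein-coding transcript with a coding region of 1326 nt. Its density in HEK293T cells was 19.1 and 22.1 RPKM without NAEK and 18.7 and 21.2 RPKM with it. In transgenic cells it fell to 3.56 and 3.29 RPKM without NAEK and 3.99 and 3.68 RPKM with it. All 4 transgenic libraries lay close together and far below the HEK293T libraries. The means were 20.3 ± 1.61 and 3.63 ± 0.291 RPKM (SD, n = 4), 5.59-fold lower in transgenic cells, on 438 to 516 and 63 to 91 reads per library. The log2 difference was -2.20 (SE 0.0899, limma adjusted p = 7.94e-05), the smallest adjusted p of all coding regions tested. This transcript also passed within each NAEK state in the fit of all 8 libraries, with log2 differences of -2.29 without NAEK (limma adjusted p = 0.00555) and -2.12 with it (limma adjusted p = 0.0101). Without any 1 library its pooled adjusted p ran from 0.000573 to 0.00143. By ratio of mean RPKM, 8 called decreases were larger, all with means of at most 2.67 RPKM, and 3 of them rest on at most 3 transgenic reads. The largest ratio, 53.9, came from 109 HEK293T and 2 transgenic reads, with an exact 95% interval of 14.6 to 450.7 that covers counting error only.

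Among heavily translated transcripts the differences that passed were modest in size. The called region of highest level that rose was ENST00000600659, a protein-coding transcript with a coding region of 210 nt. HEK293T libraries held 1475 and 2276 RPKM without NAEK and 1418 and 2080 RPKM with it, and transgenic libraries 2833 and 2887 RPKM without and 2823 and 3101 RPKM with it. HEK293T libraries numbered replicate 2 stood above those numbered replicate 1 in both NAEK states, and the transgenic libraries were more even. The means were 1812 ± 430 and 2911 ± 130 RPKM (SD, n = 4), a 1.61-fold difference (log2 0.71, SE 0.152, limma adjusted p = 0.0453). Only 1 of the 8 fits without 1 library called it, with adjusted p from 0.0228 to 0.126. The difference was 0.97 over the libraries numbered replicate 1 and 0.46 over those numbered replicate 2.

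The called region of highest level that fell was ENST00000233143, a protein-coding transcript with a coding region of 135 nt and the third highest density of all coding regions tested. HEK293T libraries held 5877 and 5160 RPKM without NAEK and 6290 and 5529 RPKM with it. Transgenic libraries held 4638 and 4600 RPKM without NAEK and 4311 and 4067 RPKM with it. The lines did not overlap, as the choice required, although the distance between the nearest libraries was smaller than the range within HEK293T. Means were 5714 ± 483 and 4404 ± 268 RPKM (SD, n = 4), 1.30-fold lower in transgenic cells (log2 -0.37, SE 0.0809, limma adjusted p = 0.047). Quantile normalization brought the difference to -0.12, short of the threshold (limma adjusted p = 0.551), and 1 of the 8 fits without 1 library called it.

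**Figure D2:**
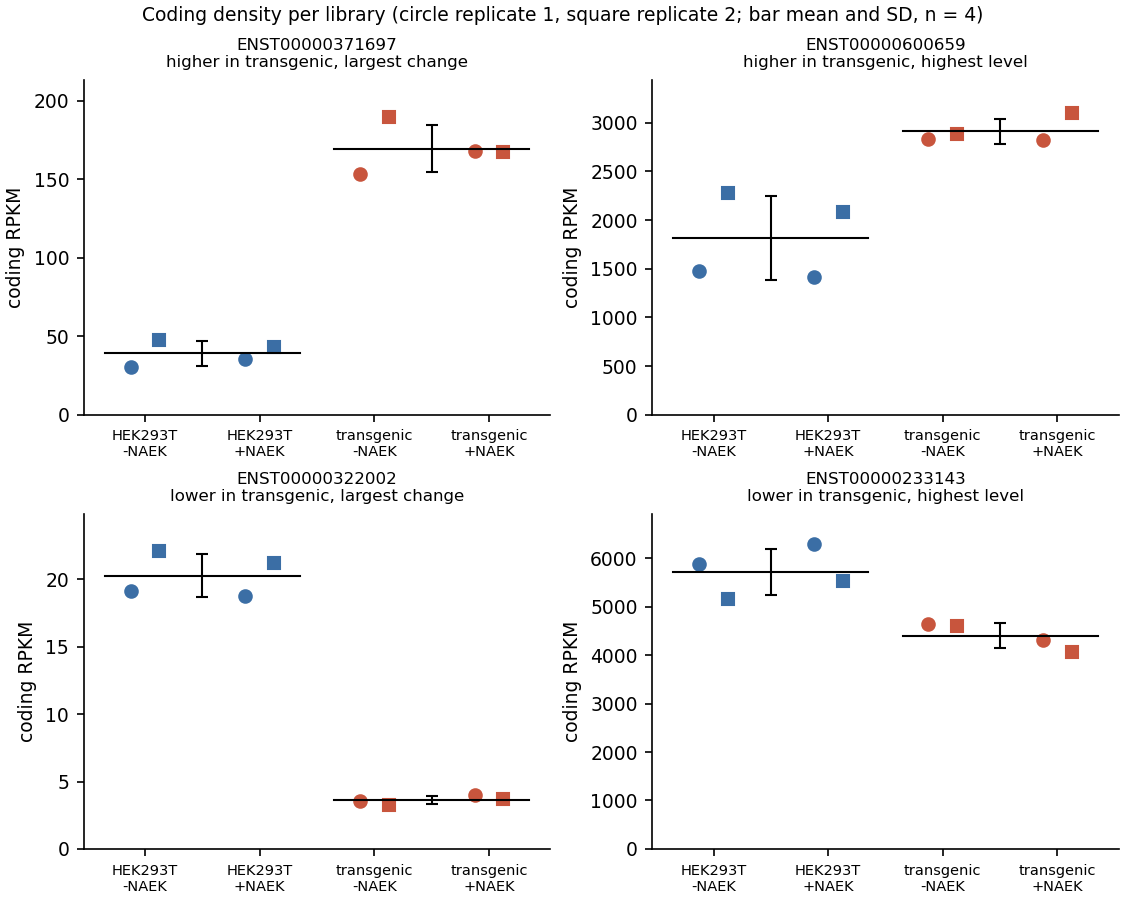
Coding RPKM (vertical axes, from 0) of the 4 named transcripts in each of the 8 libraries, by line and NAEK state; circles are replicate 1, squares replicate 2, and bars the mean and SD of a line (n = 4). The 4 transcripts were chosen among regions whose lines do not overlap, and the gap is widest, relative to the spread, for ENST00000322002.

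The 12 largest increases and decreases among regions that passed limma without overlap differed in level. The 12 largest increases had log2 differences from 1.32 to 2.10 and mean densities from 8.66 to 104.4 RPKM, with a median of 26.5 RPKM, and 2 of them lay under 10 RPKM. The 12 largest decreases had log2 differences from -2.20 to -1.63 and mean densities from 1.21 to 25.7 RPKM, with a median of 3.94 RPKM, and 8 of them lay under 10 RPKM. Of the 24, 2 of the increases and 1 of the decreases were on transcripts annotated as targets of nonsense-mediated decay. The 6 called regions of highest level in each direction held 685.5 to 2361 RPKM where density rose and 507.8 to 5059 RPKM where it fell. Their ratios were 1.23 to 1.61 among rises and 1.22 to 1.39 among falls.

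The share of coding regions that separated the lines grew with their level and with the reads behind them. Between 1 and 2 RPKM, 3.61% lay above and 5.27% below, with a median of 190 reads over the 8 libraries. Between 10 and 50 RPKM, 7.64% lay above and 10.3% below, with a median of 2050 reads. At 200 RPKM and over, 103 of 902 lay above (11.4%) and 134 below (14.9%). The size of the separated differences did not grow with level on the log2(RPKM + 1) scale, which shrinks the change of low densities. Median log2 differences were 0.35 above and -0.35 below between 1 and 2 RPKM and 0.25 and -0.30 at 200 RPKM and over. Replicates of a group were tighter at high levels, with a median absolute log2 difference of 0.190 to 0.212 between 1 and 2 RPKM and 0.0925 to 0.163 at 200 RPKM and over. The excess of lower over higher regions was present at each level, with 56.5 to 59.9% of the separated regions lower in transgenic cells. It was absent among the 100 coding regions of highest density, of which 13 lay above and 8 below, with 3 higher and 1 lower by limma.

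**Figure D3:**
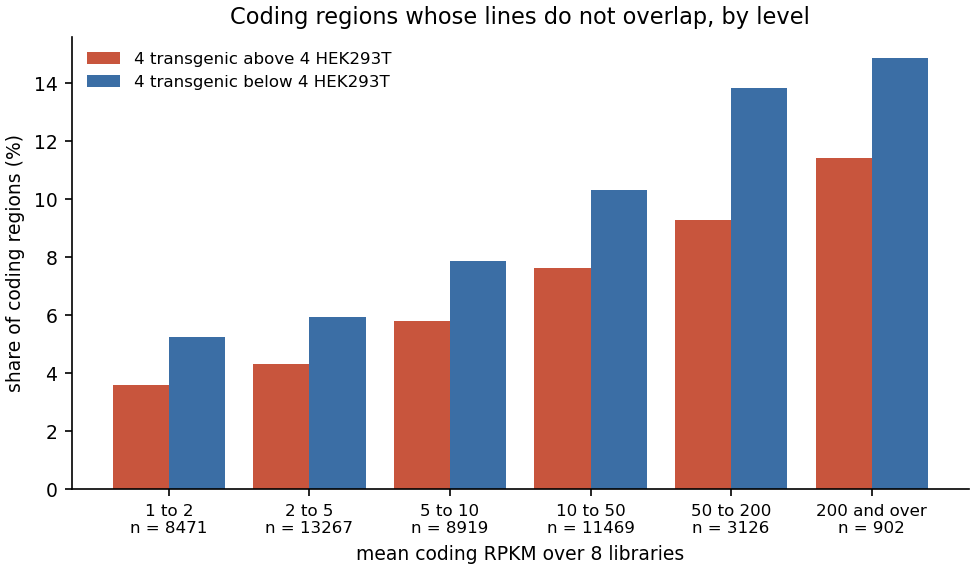
Share of coding regions (percent, vertical axis, from 0) with all 4 transgenic libraries above (red) or below (blue) all 4 HEK293T libraries, by mean coding RPKM over 8 libraries, with the number tested under each pair of bars. Both shares rise from the lowest level, 3.61 and 5.27%, to the highest, 11.4 and 14.9%.

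Transcript type divided the separated regions unevenly. Nonsense-mediated decay removes mRNAs whose stop codon lies upstream of a splice junction, and transcripts annotated as its targets often share most of their coding exons with a protein-coding transcript of the same gene. Of 36274 protein-coding transcripts, 6.21% lay above and 8.93% below, and 419 passed limma higher and 794 lower. Of 9878 decay targets, 4.22% lay above and 4.52% below, and 83 passed higher and 84 lower. Decay targets thus made up 21.4% of all regions tested, 15.6% of those above and 12.1% of those below. They also carried fewer reads, with a median of 218 against 955 for protein-coding transcripts. Between 10 and 50 RPKM, where medians were 711 and 2422 reads, 5.51% of decay targets lay above and 6.06% below, against 8.10 and 11.2% of protein-coding transcripts. At 50 RPKM and over, 10.4% of decay targets lay above and 9.98% below, against 9.67 and 14.6%. The part of read depth in the difference between types was not tested.

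Coding length showed the same kind of unevenness, mainly for decreases. Under 300 nt, 3.61% of coding regions lay above and 4.72% below. From 1200 to 2400 nt these shares were 6.76 and 9.69%, and at 2400 nt and over 5.82 and 12.1%. Long regions also hold more reads, with a median of 1854 at 2400 nt and over against 141 under 300 nt. The limma calls did not follow the same course, with 2.57% called under 300 nt, 3.49% from 600 to 1200 nt and 2.57% at 2400 nt and over. At 2400 nt and over, 118 regions were lower and 29 higher by limma.

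The line difference was seen in both NAEK states, which share no library but are not fully independent. Across coding regions, the deviation of replicate 1 from its group mean correlated at 0.324 between the HEK293T states and 0.048 between the transgenic states. Its part in the agreement of the states was not tested. Chosen on the libraries without NAEK alone, 7911 coding regions had both transgenic libraries above both HEK293T libraries (17.1% of those tested). With NAEK, 48.6% of these again lay above and 7.10% lay below, against 24.0% above and 24.0% below among all coding regions tested. For the 9822 regions chosen as below without NAEK (21.3%), 50.7% lay below again with NAEK and 7.31% lay above. Median log2 differences were smaller in the libraries that had no part in the choice, at 0.25 without and 0.17 with NAEK for regions above and at -0.27 and -0.18 for regions below. Chosen instead on the libraries with NAEK, 11066 regions lay above (24.0%) and 11085 below (24.0%), and 34.8 and 45.0% of them kept their side without NAEK, against 17.1 and 21.3% among all tested.

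Within a single NAEK state, where 2 libraries stood against 2, few regions passed. In the fit of all 8 libraries, limma called 1 coding region between the lines without NAEK (0.00217%) and 2 with NAEK (0.00433%), all lower in transgenic cells. At an unadjusted p under 0.05 there were 4539 and 7204 of 46154. The interaction of line and NAEK passed in 0 of 46154 coding regions (0.0%) by limma, with 1763 at an unadjusted p under 0.05 and a smallest adjusted p of 0.828. A missing call does not show that the difference was equal in both states. For ENST00000371697 the interaction was -0.06 (SE 0.294) and for ENST00000322002 0.17 (SE 0.184), each with a limma adjusted p of 1. Across the 15497 coding regions of at least 10 RPKM, which all come from the same libraries and can include several transcripts of a gene, line differences without and with NAEK correlated with Pearson's r of 0.664. Over all 46154 it was 0.446.

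**Figure D4:**
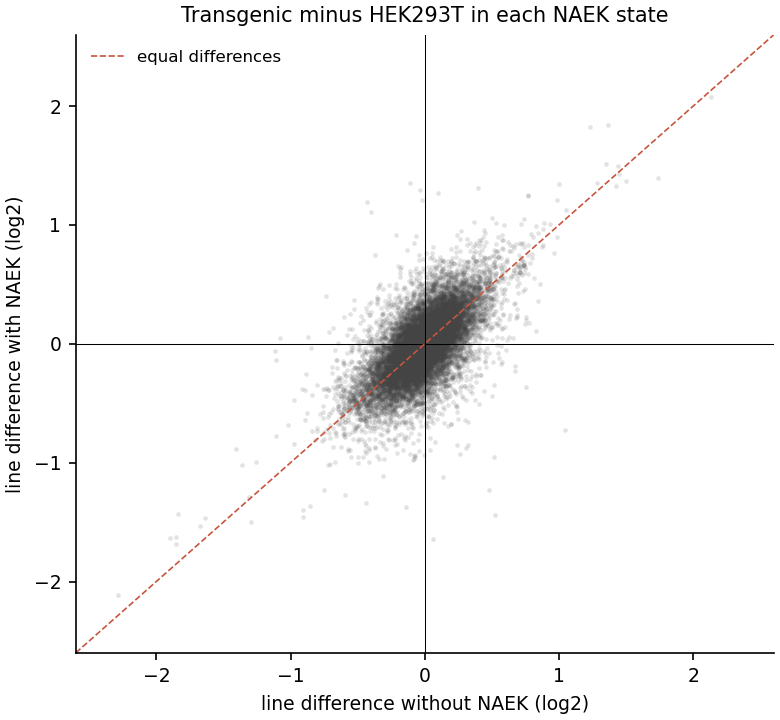
Line difference with NAEK (log2, transgenic minus HEK293T, vertical axis) against that without NAEK (horizontal axis) for the 15497 coding regions with a mean of at least 10 RPKM, 1 point each; the dashed line marks equal differences. The differences correlate (Pearson's r of 0.664) with scatter about the dashed line, and the far ends hold a few regions that changed strongly in both states.

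Footprints after the stop codon moved in the same direction as the coding footprints. The first extended region begins after the stop codon and is listed apart from the coding region of its own transcript. The extended region of 1 transcript can be coding sequence of another, and how often this held in the chosen sets was not examined. The readout may therefore not be independent of the choice. In the 489 transcripts that were higher by limma without overlap, first extended regions held 257.2 and 248.3 RPM (reads normalised to the library's total as in RPKM, without length) without NAEK and 242.3 and 243.2 with it in HEK293T cells. In transgenic cells they held 305.8 and 290.4 RPM without NAEK and 306.9 and 315.9 with it. The lines did not overlap, with means of 247.8 ± 6.82 and 304.8 ± 10.6 RPM (SD, n = 4). In the 867 lower transcripts the values were 311.6 and 307.5 RPM without NAEK and 311.3 and 313.1 with it in HEK293T cells. Transgenic libraries held 222.5 and 220.3 RPM without NAEK and 235.2 and 229.0 with it, again with no overlap, and the means were 310.9 ± 2.35 and 226.7 ± 6.75 RPM (SD, n = 4). Over all 46154 transcripts the lines overlapped, at 12430 to 13200 RPM in HEK293T and 11980 to 12970 in transgenic cells.

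Relative to coding reads, first extended reads moved little in the lower transcripts. HEK293T libraries stood at 0.752 ± 0.0168% of coding reads and transgenic ones at 0.760 ± 0.0333% (SD, n = 4), and the lines overlapped. In the higher transcripts they stood at 1.079 ± 0.0498% in HEK293T and 0.969 ± 0.0355% in transgenic libraries, without overlap. This ratio has the coding reads that chose the transcripts as its denominator, so it is given as a description. By single transcript, 168 of the 489 higher ones had at least 10 first extended reads over the 8 libraries. Of these, 118 had a higher mean log2(RPKM + 1) of the first extended region in transgenic cells (70.2%, against 47.9% of the 11688 tested transcripts with that many reads). Of the 288 lower ones with at least 10 such reads, 227 had a lower value (78.8%, against 52.1%). The median log2 difference of the first extended region was 0.28 in the higher and -0.53 in the lower transcripts, against -0.03 over all 11688.

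**Figure D5:**
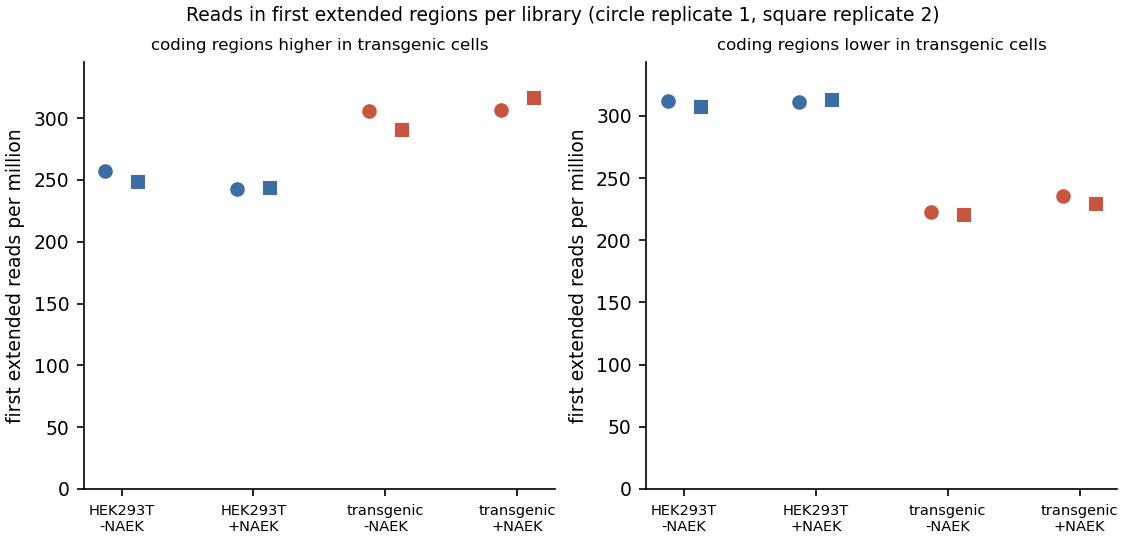
First extended reads in RPM, normalised to the library's total reads (vertical axes, from 0) summed over the 489 transcripts with higher (left) and the 867 with lower (right) coding density in transgenic cells, by line and NAEK state; circles are replicate 1 and squares replicate 2. Transgenic libraries lie above HEK293T libraries on the left, at 290.4 to 315.9 against 242.3 to 257.2, and below them on the right, at 220.3 to 235.2 against 307.5 to 313.1.

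As a share of each library's coding reads, the 489 higher transcripts held 2.58 ± 0.120% in HEK293T and 3.57 ± 0.0604% in transgenic cells, and the 867 lower ones 4.64 ± 0.121% and 3.39 ± 0.0643% (SD, n = 4). These shares describe how much of coding translation the called regions made up, since the same reads chose them.

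Both lines varied among their own libraries. The first principal component of log2(RPKM + 1), over the 15497 coding regions of at least 10 RPKM, held 44.2% of the variance and ordered all HEK293T libraries below all transgenic ones. HEK293T libraries numbered replicate 1 had loadings of -0.494 and -0.540, and those numbered replicate 2 had -0.0201 and -0.190, nearer to the transgenic libraries at 0.209 to 0.461. The second component, with 21.3%, placed HEK293T replicates 1 at 0.165 and 0.263 and replicates 2 at -0.574 and -0.409, with transgenic libraries from -0.314 to 0.483. On the third, with 10.9%, transgenic libraries spread more widely, from -0.588 to 0.671, than HEK293T libraries, from -0.261 to 0.142. What the replicate number stands for is not given in the labels. Restricted to libraries numbered replicate 1, the log2 difference was 2.26 for ENST00000371697 and -2.06 for ENST00000322002, and restricted to replicate 2 it was 1.95 and -2.34. With 4 libraries each, 0 coding regions passed limma in either restriction, while 10086 and 4975 of 46154 had an unadjusted p under 0.05.

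The minimum of 1 RPKM set which transcripts were compared. The coding region just inside it had a mean of 1.0001 RPKM, with 0.867 to 1.27 RPKM in HEK293T and 0.710 to 1.27 RPKM in transgenic libraries. The one just outside had a mean of 0.9998 RPKM, with 0.713 to 1.49 and 0.822 to 1.22 RPKM. In all, 36430 endogenous entries stood under the minimum. Among the regions tested, 0 were listed at 0 in all 4 libraries of a line, so no coding region above the minimum was without reads in a whole line.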

How the data were processed

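Ribosome-protected fragments of 8 libraries were prepared with a TruSeq Ribo Profile kit, per the labels' protocols. Bowtie 1.2.2 and the hg38 build are listed, with no role given, per the submitters' processing notes. The authors deposited coding and first extended densities as RPKM per transcript, and no other unit was used. Whole reads were recovered from the RPKM values of each library: all 69956 coding entries above 0 in any library were whole within 0.01 reads. Library totals were inferred from ratios of low RPKM values and from the synthetase length given by its entry name. The length of a region was the shortest that made all its reads whole. Totals, read counts and lengths rest on these steps.

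Coding regions with a mean of at least 1 RPKM were tested as log2(RPKM + 1) with limma 3.58.1 in R 4.3.3, with line and NAEK state as terms, a variance trend and Benjamini-Hochberg adjustment over all 46154. A pseudocount of 1 RPKM understates the change of low regions. Interaction and within-state contrasts came from 1 fit with 4 group means. The method was tested on simulated data drawn without effects of replicate number, which cannot show how stable the number of calls is. Transcripts were named as the largest change and the highest level in each direction among regions that passed limma without overlap. The planned rule named genes and gene lists, which could not be matched to transcript IDs, so 2 transcripts a direction were named instead. The members and lists were chosen with earlier results of these data known.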

Additional observations from a re-analysis of the deposited data

How the results depend on the processing

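Direction was the same under every alternative run for the 4 named transcripts, but the number of calls was not stable. Against 1380 coding regions (502 higher, 878 lower), limma called 885 (300 and 585) with no filter on low values, 829 (293 and 536) with no variance trend, and 3740 (1450 and 2290) with voom on recovered reads. Requiring at least 400 reads, chosen after seeing the data, gave 2977 (1125 and 1852). Line as the only factor, without NAEK state, gave 1827 (667 and 1160). With a mean of at least 10 RPKM, 1269 regions lay above and 1749 below without overlap, since fewer were tested. Limma called 0 regions, and so 0 higher and 0 lower, in the 4 libraries without NAEK and in the 4 with NAEK, as in the 4 numbered replicate 1 and the 4 numbered replicate 2, both chosen after seeing the data. In that order, 3862, 7142, 10086 and 4975 of 46154 had an unadjusted p under 0.05. Leaving out 1 library gave 249 to 1787 calls, 81 to 761 higher and 158 to 1026 lower. It gave 314 without HEK293T minus NAEK replicate 1, 419 without HEK293T plus NAEK replicate 2, 352 and 529 without transgenic minus NAEK replicates 1 and 2, and 253 and 251 without transgenic plus NAEK replicates 1 and 2. Regions without overlap then numbered 3232 to 4324 above and 4196 to 5853 below, where fewer libraries have to separate. Within a NAEK state, leaving out 1 library gave 0 to 1 calls without NAEK and 0 to 2 with it. The cause of the other changes was not tested.

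With the replicate number as a block, 3094 regions passed (1223 higher, 1871 lower), and the interaction passed in 0. The labels do not say what the number stands for. Deviations of same-numbered libraries correlated at 0.048 between the transgenic groups and at 0.137 to 0.324 in the other 5 pairs of groups, so the number was not taken to pair them. Fits with 1 transcript a gene, the gene lists and the medians by chromosome were not run, because IDs were not paired with genes or chromosomes here. Regions with few reads limit what could be called, since 1475 of those tested had under 50 reads over the 8 libraries.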
